A study of Arabidopsis thaliana with 12 samples.

Results

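The genes described here encode nucleoporins outside the NUP107-160 subcomplex, nuclear import and export receptors, and the small GTPase Ran. They were taken from the count table of a seedling RNA-seq experiment by a list of AGI locus identifiers, a rule that uses no measured value although the list was drawn up with earlier results of these data known. They make up 34 of the 33602 genes in that table. By role they are 3 nucleoporins set in or at the membrane, 5 of the inner ring, 5 of the central channel, 5 of the cytoplasmic side, 4 of the nuclear basket, 5 import receptors, 4 export receptors and 3 Ran GTPases. All 34 loci matched a RefSeq gene. For several nucleoporins that annotation gives only a protein family or the words nuclear pore complex protein. Among them are *AT3G56900*, *AT3G16310*, *AT1G24310*, *AT1G75340*, *RAE1*, *TCU1*, *LNO1* and *NUP1*. The place of such genes in the pore rests on the grouping used here. The experiment compared Col-0 seedlings, called WT in the labels, with the T-DNA insertion line *nup85-1*, which carries a lesion in *NUP85*, a scaffold nucleoporin of the NUP107-160 subcomplex. Seedlings of both genotypes were grown for 7 days on agar medium with sucrose and were then kept for 3 h in liquid medium without hormone (mock) or with 50 µM abscisic acid (ABA). Each of the 4 groups had 3 libraries of total RNA from whole seedlings, and *nup85-1* is a single insertion allele. The question was how loss of *NUP85* and treatment with ABA bear on gene expression, read here for the rest of the pore and its transport machinery.

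The nuclear pore complex is a ring-shaped assembly that spans the nuclear envelope. Its scaffold holds a central channel filled with phenylalanine-glycine repeat nucleoporins, through which small molecules diffuse and large cargoes pass only when bound to a receptor. Importins release their cargo inside the nucleus when they bind Ran in its GTP form, whereas exportins bind cargo together with Ran-GTP and let it go in the cytoplasm when the GTP is hydrolysed. Bulk mRNA leaves by a partly separate route that ends at nucleoporins and helicase cofactors on the cytoplasmic side. In plants, mutants in several of these genes have altered hormone and stress responses, and *SAD2* was named for its ABA and drought sensitive mutant.

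The libraries held from 6616931 to 29798437 reads assigned to genes, and the members had 59 to 26065 reads each in a library. Levels are given as CPM, the count relative to the library total after scaling by TMM factors over the 12 libraries. *NUP85* had 31.3, 29.1 and 16.1 CPM in WT mock replicates 1, 2 and 3, and 3.54, 1.73 and 27.5 CPM in the mock libraries labelled *nup85*. After ABA it had 40.0, 41.5 and 29.3 CPM in WT and 3.20, 1.98 and 17.0 CPM in the libraries labelled *nup85*. The level therefore goes against the label in replicate 3 of *nup85* mock, and replicate 3 of *nup85* ABA was also above the other libraries of its group and above WT mock replicate 3, so each direction between genotypes refers to the libraries as labelled. Replicate 3 also stood apart in every group. Its Pearson correlation with replicates 1 and 2 over genes was 0.915 to 0.951, against 0.967 to 0.990 between replicates 1 and 2. Results that rest on replicate 3 are given with and without it. The labels do not say that replicates came from separate plants or days, so the p-values measure only the spread between these libraries, which may be technical.

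The upstream sequences below are the 300 bases before the annotated start of 3 members, from RefSeq's copy of the TAIR10.1 genome. *AT1G59660* and *AT1G10390* are shown because they belong to one family and had different log2 fold changes after ABA, and *NUP62* because it is the other member with a higher level after ABA that has an ACGTG in this window. Capitals mark, on either strand, ACGTG, the core of the ABA-responsive element known from Arabidopsis, and the core of the dehydration-responsive element, ACCGAC.
AT1G59660: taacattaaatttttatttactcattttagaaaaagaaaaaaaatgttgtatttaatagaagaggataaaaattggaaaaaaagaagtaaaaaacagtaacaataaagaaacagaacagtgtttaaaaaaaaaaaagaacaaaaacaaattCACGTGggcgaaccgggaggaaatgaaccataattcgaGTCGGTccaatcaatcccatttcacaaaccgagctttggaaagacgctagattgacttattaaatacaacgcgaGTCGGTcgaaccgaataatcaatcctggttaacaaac
AT1G10390: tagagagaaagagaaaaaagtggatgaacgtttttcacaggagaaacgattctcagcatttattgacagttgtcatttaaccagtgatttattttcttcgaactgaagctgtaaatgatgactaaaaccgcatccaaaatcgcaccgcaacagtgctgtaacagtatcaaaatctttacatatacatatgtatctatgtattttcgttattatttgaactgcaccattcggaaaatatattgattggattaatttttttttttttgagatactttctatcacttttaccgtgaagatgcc
NUP62: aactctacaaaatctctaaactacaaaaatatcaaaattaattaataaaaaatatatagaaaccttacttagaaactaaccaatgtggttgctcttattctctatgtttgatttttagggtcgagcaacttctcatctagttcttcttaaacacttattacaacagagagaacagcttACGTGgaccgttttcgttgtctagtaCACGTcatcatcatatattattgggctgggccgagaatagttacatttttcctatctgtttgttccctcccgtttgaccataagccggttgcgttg
The *AT1G59660* window lies at chr1:21923686-21923985 on the plus strand, *AT1G10390* at chr1:3412875-3413174 on the minus strand and *NUP62* at chr2:18563717-18564016 on the plus strand. The window of *NUP62* overlaps *AT2G44993*. Matches on both strands were counted, so the palindrome CACGTG upstream of *AT1G59660* counts as 2 matches to ACGTG. That motif was found upstream of 3 of the 34 members, namely *AT1G59660*, *NUP62* and the basket gene *NUA*, whereas 25.8% of 26711 windows of equal length upstream of all genes held one. *AT1G59660* also held 2 matches to ACCGAC, a motif present in 5.48% of all windows and in those of *LNO1*, *GLE1* and *IMPA2*. GCCGAC, present in 3.01% of all windows, was not found in a member's window. These matches are descriptions of letters, not of bound sites.

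Levels per length, as RPKM on the summed exon length of the RefSeq gene, spanned a wide range under mock conditions. The 3 Ran genes led in WT mock, with 129 ± 23.2 RPKM for *RAN1*, 121 ± 11.7 for *RAN2* and 90.4 ± 16.1 for *RAN3* (SD, n = 3). *RAN1* and *RAN2* differed by less than their SD. The importin alpha gene *IMPA2* (36.6 ± 3.83 RPKM), the importin beta gene *KPNB1* (32.0 ± 6.90), *IMPA1* (29.8 ± 4.35) and the exportin gene *XPO1A* (28.6 ± 2.96) followed, and neighbours among these 4 differed by less than the larger SD of each pair. The 22 nucleoporins lay between 2.08 ± 0.522 RPKM for *AT1G59660* and 19.96 ± 4.41 for *NUA*. *AT1G10390*, the relative of *AT1G59660*, had 17.3 ± 3.04 RPKM. After ABA, *RAN1* reached 477 ± 135 RPKM in WT and 612 ± 77.9 in the libraries labelled *nup85*, and *AT1G59660* reached 20.9 ± 20.3 and 19.8 ± 11.004 RPKM, so that it no longer was the lowest member.

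**Figure D1:**
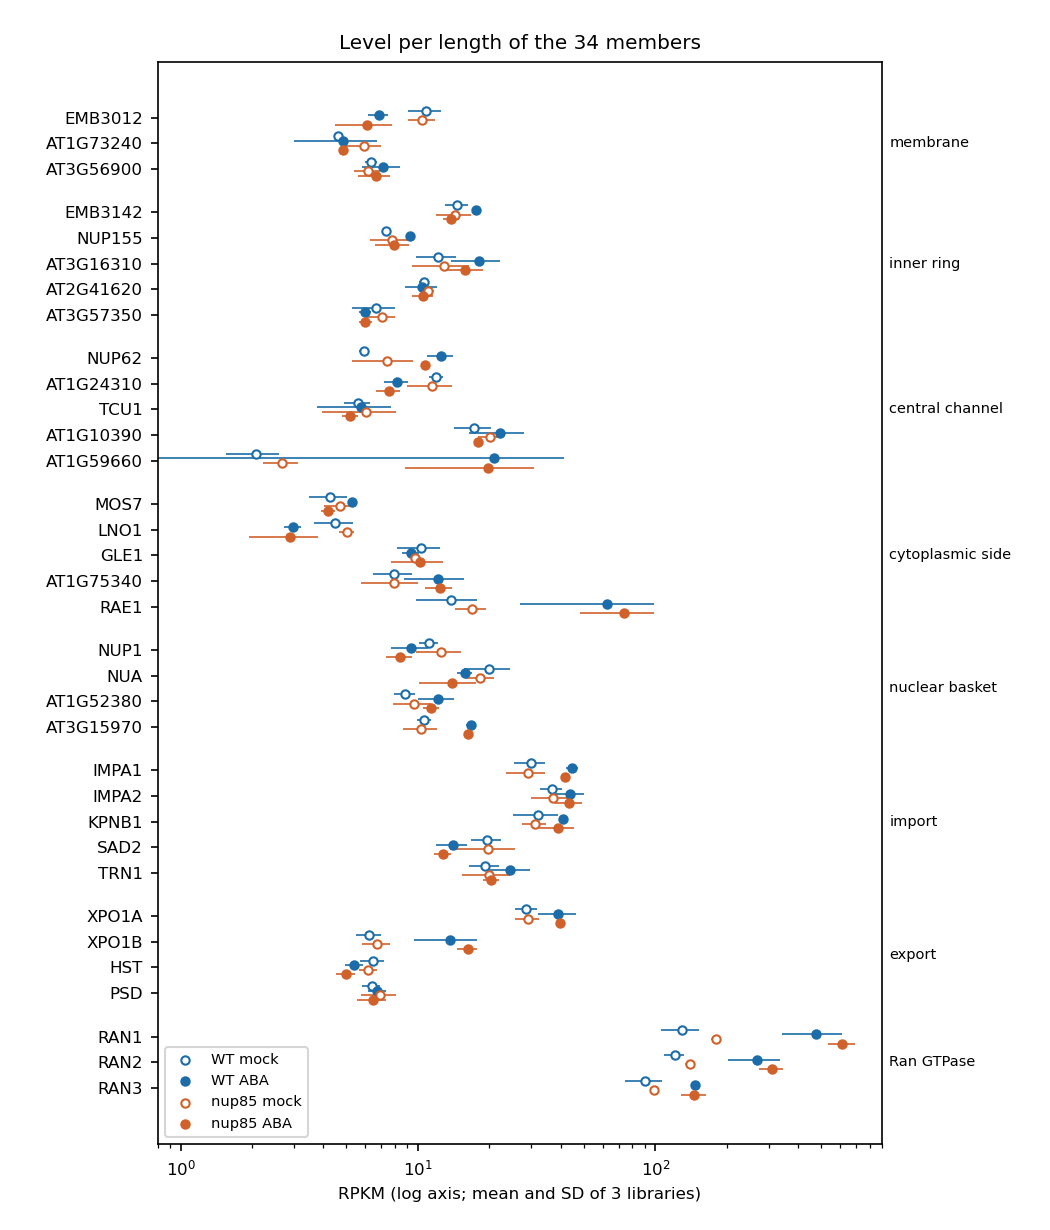
Level per length of the 34 members by role. The x axis is RPKM on a log axis, points are means of 3 libraries, bars are SD, open points are mock and filled points ABA. The Ran genes lie to the right of all other members in WT mock, from 90.4 to 129 RPKM, and *AT1G59660* moves from 2.08 to 20.9 RPKM in WT with a wide SD after ABA.

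ABA changed 18 of the 34 members when the treatment effect was averaged over both genotypes, with 12 higher and 6 lower at an adjusted p under 0.05 (edgeR quasi-likelihood test, 12 libraries). This is the background rate, since 52.9% of the 20574 genes tested were called in the same comparison. The share of members called higher was 35.3%, against 26.6% of all genes, and the share called lower was 17.6%, against 26.3%. The median absolute log2 fold change was 0.39 over the members and 0.52 over all genes tested. Without replicate 3, 23 members were called, 17 higher and 6 lower, where the background was 63.2% (31.2% higher and 32.1% lower), and those 23 held all 18 members called with 3 replicates. Upper-quartile in place of TMM scaling moved the median over all genes from -0.01 to -0.12 (log2) and gave 11 members higher and 8 lower, with 21.9% and 31.2% of all genes (53.1% together). DESeq2 called 19 members (background 50.4%) and, on replicates 1 and 2, 21 (48.7%), and 21 were called with a replicate block (background 59.8%). Whole seedlings were sequenced, so fewer cells of a type and less RNA per cell cannot be told apart in any of these changes.

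All 3 Ran genes rose after ABA, and *RAN1* rose most among them. *RAN1*, on chromosome 5 from 6760094 to 6762330, had 199, 159 and 229 CPM in the WT mock libraries and 614, 597 and 961 CPM after ABA. The libraries labelled *nup85* had 289, 263 and 270.2 CPM under mock conditions and 909, 823 and 1057 CPM after ABA. Every ABA library was above every mock library. The log2 fold change over both genotypes was 1.82 (SE 0.17, adjusted p = 1.04e-05) and 1.70 without replicate 3. *RAN2* (chromosome 5, 6762569 to 6764683), close to *RAN1*, had 147, 132 and 161 CPM in WT mock, 302, 262 and 415 CPM in WT ABA, 179, 166 and 164 CPM in *nup85* mock and 371, 336 and 421 CPM in *nup85* ABA. Its groups did not overlap either, with a log2 fold change of 1.15 (SE 0.14, adjusted p = 5.68e-05). *RAN3*, on the same chromosome from 22392063 to 22394185, had 108, 80.5 and 115 CPM in WT mock, 159, 162 and 169 CPM in WT ABA, 109, 108 and 111 CPM in *nup85* mock and 158, 145 and 183 CPM in *nup85* ABA. Again no ABA library fell within the mock range, and the log2 fold change was 0.63 (SE 0.11, adjusted p = 8.12e-04). The summed level of the 3 genes had a median of 454 CPM in WT mock, 1075 in WT ABA, 545 in *nup85* mock and 1438 in *nup85* ABA. The coding sequences of *RAN1* and *RAN2* are 94.3% identical, so the split of reads between them is uncertain. More generally, 11 of the 34 members overlap another counted gene, and the strand setting of the counting is not given in the sources used here.

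**Figure D2:**
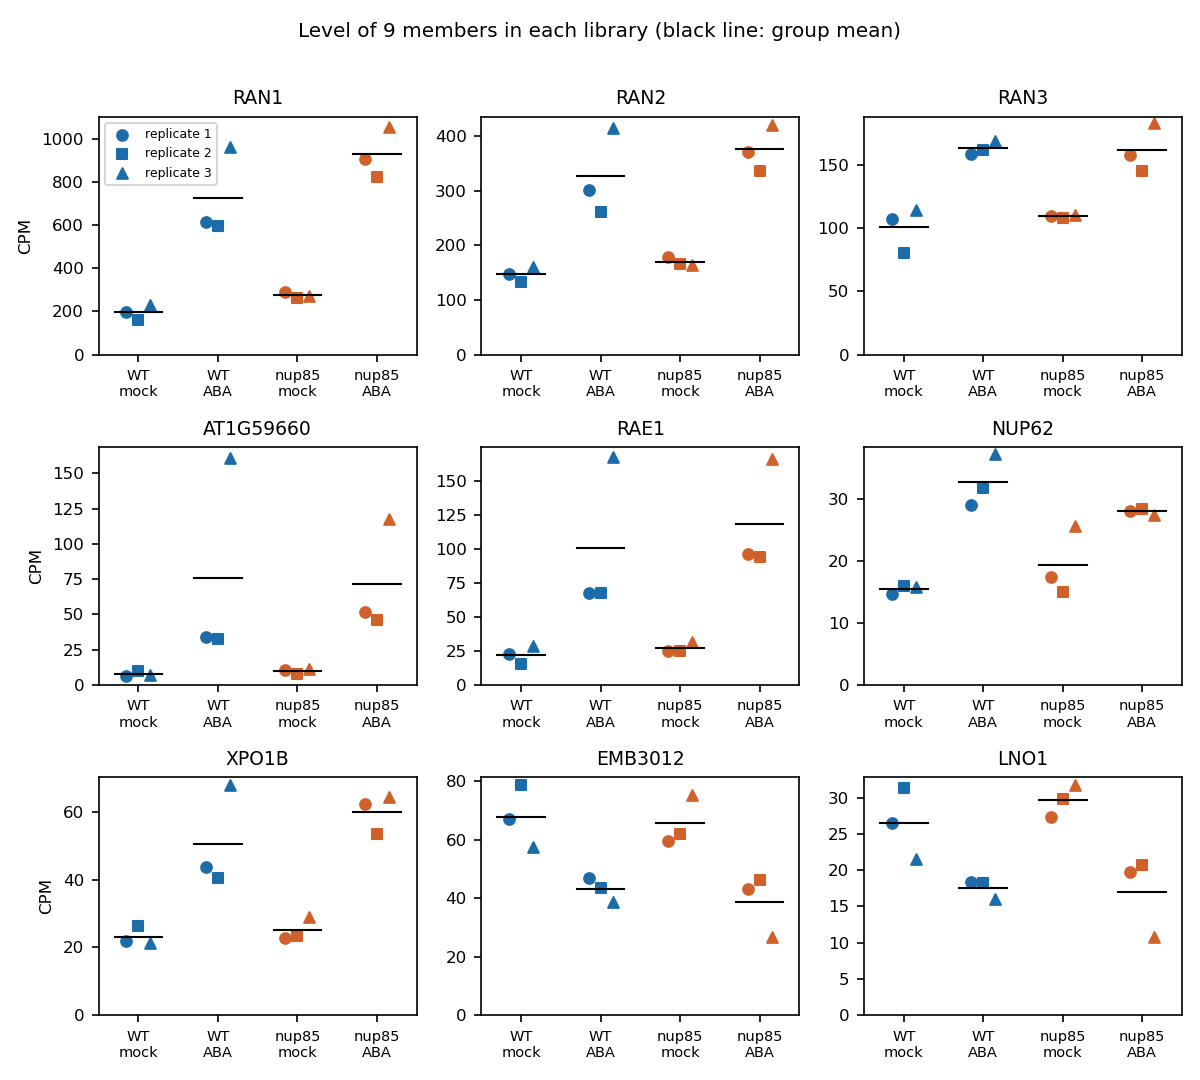
Level of 9 members in each library. The y axes are CPM from 0, the 4 columns of each panel are the groups, markers give the replicate and the black line is the group mean. In the panels of *AT1G59660* and *RAE1* the ABA libraries of replicate 3 lie far above the other ABA libraries (161 and 118 CPM for *AT1G59660*), and in the *NUP62* panel *nup85* mock replicate 3 (25.7 CPM) is close to the ABA libraries.

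Among the export receptors, both exportin 1 genes rose and *HST* fell. *XPO1A* and *XPO1B* encode the receptor for proteins with leucine-rich export signals. *XPO1B* (chromosome 3, 708698 to 717093) had 21.8, 26.2 and 21.3 CPM in WT mock and 43.6, 40.5 and 67.9 CPM in WT ABA. In the libraries labelled *nup85* it went from 22.7, 23.3 and 28.9 CPM to 62.3, 53.5 and 64.4 CPM. The groups did not overlap, and the log2 fold change was 1.20 (SE 0.15, adjusted p = 5.97e-05). *XPO1A* (chromosome 5, 5594632 to 5602969), the more abundant of them, had 107, 128 and 108 CPM in WT mock, 144, 136 and 189 CPM in WT ABA, 106, 111 and 131 CPM in *nup85* mock and 163, 157 and 154 CPM in *nup85* ABA. Its groups also kept apart, with a smaller log2 fold change of 0.45 (SE 0.12, adjusted p = 0.00793). *HST*, the HASTY exportin known for its part in microRNA biogenesis, had mock levels of 24.1 to 30.2 CPM and ABA levels of 18.4 to 24.5 CPM, which overlapped. Its log2 fold change was -0.28 (SE 0.10, adjusted p = 0.0294), and the call was lost when WT mock replicate 2, WT ABA replicate 1 or 2, *nup85* ABA replicate 2 or 3, or *nup85* mock replicate 3 was left out, where the log2 fold change was between -0.29 and -0.24. *PSD*, the tRNA exportin, had a log2 fold change of -0.01 (SE 0.11).

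Of the import receptors, *IMPA1* rose and *SAD2* fell. *IMPA1* encodes an importin alpha, the adaptor that binds classical import signals. It had 58.7, 77.8 and 74.9 CPM in WT mock, 98.6, 109 and 108 CPM in WT ABA, 60.8, 61.4 and 83.2 CPM in *nup85* mock and 95.3, 98.0 and 103 CPM in *nup85* ABA. These ranges did not overlap, and the log2 fold change was 0.56 (SE 0.12, adjusted p = 0.00208). *IMPA1* overlaps the annotated gene *AT3G06730* on the same strand. *SAD2*, an importin of the beta family, had 62.8, 81.7 and 82.0 CPM in WT mock, 48.0, 51.0 and 63.5 CPM in WT ABA, 63.3, 61.6 and 103 CPM in *nup85* mock and 51.0, 52.1 and 44.3 CPM in *nup85* ABA. The WT ABA library of replicate 3 reached into the mock range, and the log2 fold change was -0.55 (SE 0.15, adjusted p = 0.0102). *KPNB1*, *IMPA2* and *TRN1*, a transportin that carries RNA-binding proteins, had log2 fold changes of 0.34, 0.24 and 0.19 that missed the threshold (SE 0.13 to 0.14, adjusted p from 0.0565 to 0.290). All 3 were called higher with replicates 1 and 2, with log2 fold changes of 0.27, 0.25 and 0.23, and the replicate block called *KPNB1* (0.35, adjusted p = 0.0153 from edgeR) and *IMPA2* (0.24, adjusted p = 0.0156).

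*AT1G59660* had the largest log2 fold change of the 34 members after ABA. It encodes a nucleoporin autopeptidase, the domain by which Nup98 of animals cleaves itself from its precursor, and lies on chromosome 1 from 21923986 to 21929437. WT mock libraries had 6.18, 9.71 and 6.76 CPM and WT ABA libraries 34.2, 32.5 and 161 CPM. The libraries labelled *nup85* had 10.2, 7.86 and 10.97 CPM under mock conditions and 51.5, 46.0 and 118 CPM after ABA. All 6 ABA libraries were above all 6 mock libraries, and replicate 3 was highest within each ABA group. The log2 fold change was 3.11 (SE 0.45, adjusted p = 1.86e-04), 2.26 with replicates 1 and 2 (SE 0.14, adjusted p = 1.44e-06) and 2.52 when only WT ABA replicate 3 was left out. The other gene of this family, *AT1G10390*, had 56.5 to 87.8 CPM in mock libraries and 68.1 to 112 CPM in ABA libraries, with a log2 fold change of 0.10 (SE 0.14, adjusted p = 0.565).

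*NUP62*, a repeat nucleoporin of the central channel on chromosome 2 from 18564017 to 18567892, also rose. It had 14.7, 15.9 and 15.8 CPM in WT mock, 29.0, 31.8 and 37.3 CPM in WT ABA, 17.4, 15.1 and 25.7 CPM in *nup85* mock and 28.1, 28.5 and 27.5 CPM in *nup85* ABA. The highest mock library, *nup85* replicate 3, was just below the lowest ABA library of that genotype. The log2 fold change was 0.80 (SE 0.13, adjusted p = 4.39e-04). *NUP62* overlaps *AT2G45010* on the same strand. *AT1G24310* fell, from 13.5 to 20.8 CPM over the mock libraries to 10.8 to 14.2 CPM over the ABA libraries (log2 fold change -0.58, SE 0.13, adjusted p = 0.00273), with overlapping ranges. *TCU1*, the counterpart of Nup58, had a log2 fold change of -0.09 (SE 0.19).

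On the cytoplasmic side, *RAE1* and *AT1G75340* rose and *LNO1* fell. *RAE1*, a WD40 protein known as an mRNA export factor in yeast and animals, lies on chromosome 1 from 30320525 to 30323902. It had 23.0, 15.5 and 28.2 CPM in WT mock and 67.2, 67.8 and 167 CPM in WT ABA, and 24.7, 24.9 and 31.8 CPM in *nup85* mock and 96.1, 94.1 and 166 CPM in *nup85* ABA. The ABA libraries lay above all mock libraries, and the 2 of replicate 3 stood highest. The log2 fold change was 2.15 (SE 0.28, adjusted p = 8.99e-05) and 1.86 with replicates 1 and 2. *RAE1* overlaps *NUP96* on the opposite strand only from 30323882 to 30323902, and *NUP96* had a log2 fold change of -0.36 (SE 0.10, adjusted p = 0.0115). *LNO1*, the counterpart of Nup214, had 26.6, 31.4 and 21.5 CPM in WT mock, 18.4, 18.3 and 15.996 CPM in WT ABA, 27.4, 29.8 and 31.8 CPM in *nup85* mock and 19.7, 20.6 and 10.7 CPM in *nup85* ABA. Its groups did not overlap (log2 fold change -0.70, SE 0.16, adjusted p = 0.00428). *AT1G75340* had 10.3 to 17.8 CPM in mock libraries and 17.8 to 28.5 CPM in ABA libraries, with a log2 fold change of 0.62 (SE 0.18, adjusted p = 0.0115). *MOS7*, the counterpart of Nup88, and *GLE1*, which in yeast activates the mRNA export helicase, had log2 fold changes of 0.07 and -0.03 (SE 0.12 and 0.14).

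In the nuclear basket the NUP50 genes rose and *NUP1* fell. In animals Nup50 binds importin alpha at the basket. *AT3G15970* had 24.6, 25.0 and 22.04 CPM in WT mock, 37.7, 39.3 and 35.5 CPM in WT ABA, 25.6, 18.8 and 25.0 CPM in *nup85* mock and 35.7, 35.7 and 37.7 CPM in *nup85* ABA. The groups were well apart, with a log2 fold change of 0.65 (SE 0.10, adjusted p = 2.29e-04), and replicates 1 and 2 gave 0.65. The second NUP50 gene, *AT1G52380*, overlapped between mock (21.99 to 31.3 CPM) and ABA (28.2 to 39.3 CPM), with a log2 fold change of 0.35 (SE 0.12, adjusted p = 0.0310). That call was lost with upper-quartile scaling (log2 fold change 0.23) and when WT ABA replicate 3, WT mock replicate 1 or 2, *nup85* ABA replicate 2 or 3, or *nup85* mock replicate 1 or 2 was left out (0.27 to 0.35). *NUP1*, a plant basket protein, had 48.3 to 75.2 CPM in mock libraries and 35.1 to 54.4 CPM in ABA libraries, with a log2 fold change of -0.41 (SE 0.13, adjusted p = 0.0218). The *NUP1* call was lost without WT ABA replicate 1 or 2 or *nup85* mock replicate 3 (-0.38 to -0.32). *NUA*, the counterpart of the basket filament protein Tpr, had a log2 fold change of -0.37 (SE 0.16, adjusted p = 0.0727).

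Of the 8 membrane and inner ring nucleoporins, *EMB3012* was the one called. It encodes the counterpart of the membrane nucleoporin gp210 and fell after ABA. It had 67.1, 78.7 and 57.5 CPM in WT mock, 46.9, 43.3 and 38.7 CPM in WT ABA, 59.5, 62.0 and 75.2 CPM in *nup85* mock and 43.0, 46.0 and 26.6 CPM in *nup85* ABA. Every ABA library was below every mock library, and the log2 fold change was -0.71 (SE 0.15, adjusted p = 0.00219). *AT1G73240*, of the Ndc1 type, and *AT3G56900* had log2 fold changes of -0.10 and 0.14 (SE 0.17 and 0.13). None of the 5 inner ring genes was called, namely *EMB3142* (the counterpart of Nup205), *NUP155*, *AT3G16310* and the Nup93 type genes *AT2G41620* and *AT3G57350*. Their log2 fold changes were between -0.19 and 0.43 and only *AT3G16310* had an unadjusted p under 0.05 in edgeR, and DESeq2 called 0 of the 5. Upper-quartile scaling called 1 of them lower, and the replicate block called *AT3G16310* higher (0.43, adjusted p = 0.00314 from edgeR). *NUP155* (0.32) and *AT3G16310* (0.44) were called higher with replicates 1 and 2.

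Over both genotypes, 11 members had all 6 ABA libraries above all 6 mock libraries (*NUP62*, *AT1G59660*, *AT1G75340*, *RAE1*, *AT3G15970*, *IMPA1*, *XPO1A*, *XPO1B* and the 3 Ran genes), where the background was 16.9% of genes. All 6 were below in 2 members, *EMB3012* and *LNO1*, where the background was 15% of genes. Over replicates 1 and 2 the counts were 17 and 6 members, with backgrounds of 26.3% and 26.4%.

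**Figure D3:**
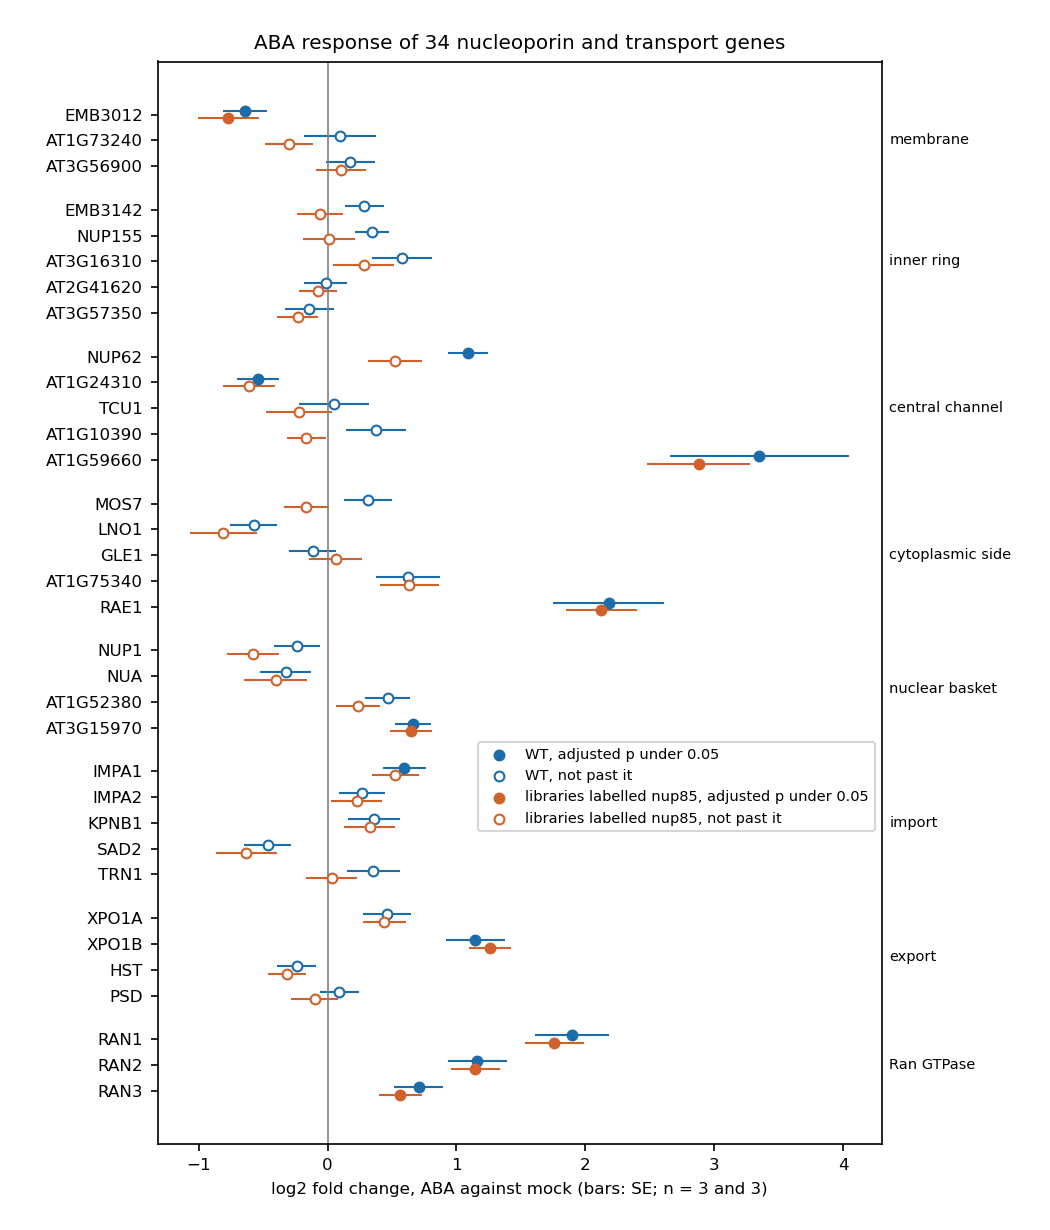
Change of the 34 members after ABA in each genotype, by role. The x axis is the log2 fold change of ABA against mock, bars are SE derived from the edgeR test on 3 and 3 libraries, and filled points passed an adjusted p of 0.05. *AT1G59660*, *RAE1* and *RAN1* lie farthest to the right in both genotypes, and the filled points to the left belong to *EMB3012* and, in WT, *AT1G24310*.

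Within a genotype fewer members passed the test. In WT 11 members were called, 9 higher and 2 lower, where the background was 31.4% of 20062 genes, 16.5% higher and 14.9% lower. In the libraries labelled *nup85* 8 members were called, 7 higher and 1 lower, with a background of 29.2% of 20001 genes, 15.4% higher and 13.8% lower. The 7 that rose in both were *AT1G59660*, *RAE1*, *RAN1*, *RAN2*, *RAN3*, *XPO1B* and *AT3G15970*. *NUP62* (1.09, SE 0.15, adjusted p = 0.00386) and *IMPA1* (0.60, SE 0.17, adjusted p = 0.0357) were called higher in WT alone, where the values in the libraries labelled *nup85* were 0.52 (SE 0.21) and 0.53 (SE 0.18). *EMB3012* was called lower in both and *AT1G24310* in WT alone (-0.54, against -0.61 in the libraries labelled *nup85*). Once replicate 3 was left out, *NUP62*, *IMPA1* and *AT1G24310* were called in both genotypes (0.79, 0.66 and -0.58 in the libraries labelled *nup85*). The share of all genes called in the libraries labelled *nup85* then rose too, from 29.2% to 51.5%. Why these 3 were called in WT alone with all replicates was not tested, and no difference between genotypes passed the interaction test. With replicates 1 and 2 the counts were 16 in WT (background 47.2%) and 17 in the libraries labelled *nup85* (background 51.5%). Upper-quartile scaling gave 7 higher and 4 lower in WT (13.3% and 18.9% of all genes, 32.2% together), and 6 higher and 4 lower in the libraries labelled *nup85* (13.1% and 16.5%, 29.7% together). DESeq2 called 12 members in WT (background 33.4%) and 11 in the libraries labelled *nup85* (30.7%), and on replicates 1 and 2 it called 12 (36.9%) and 13 (35.3%). The replicate block gave 12 (31.9%) and 6 (30.5%), without *AT1G24310* in WT (adjusted p = 0.0552 from edgeR) and without *EMB3012* and *RAN3* in the libraries labelled *nup85* (adjusted p = 0.0663 and 0.0544). The WT count dropped to 6 without ABA replicate 1 or 2, to 5 without mock replicate 1 and to 7 without mock replicate 2. Calls over all genes in WT dropped too, from 6299 to 3484, 3584, 3522 and 4886 in that order, of 20062 to 20471 tested. The *nup85* count dropped to 5 without ABA replicate 1, ABA replicate 2 or mock replicate 1. Calls over all genes there dropped from 5838 to 4072, 3984 and 3182, of 20001 to 20305 tested. With the 4-fold limit that the study used for ABA, *AT1G59660* and *RAE1* were called in each genotype, where the background was 7.49% in WT and 6.75% in the libraries labelled *nup85*, and likewise over both genotypes (7.8%). Without replicate 3 the log2 fold change of *RAE1* was 1.81 in WT, 1.93 in the libraries labelled *nup85* and 1.86 over both, each under 4-fold.

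The ABA response of related members was compared by the ratio of their CPM in each library. The 8 pairs were defined after the values had been seen, so the ratios are a description with no test. The ratio of *AT1G59660* to *AT1G10390* was 0.0958 to 0.143 over the 6 mock libraries and 0.437 to 1.64 over the 6 ABA libraries. The mean log2 ratio was 2.75 higher after ABA, and 2.30 higher in replicates 1 and 2. The ratio of *XPO1B* to *XPO1A* was 0.196 to 0.220 under mock conditions and 0.297 to 0.419 after ABA, a log2 difference of 0.74. In both pairs the gene with the lower mock level had the larger log2 fold change. Among the Ran genes, the ratio of *RAN3* to *RAN1* was 0.378 to 0.542 in mock libraries and 0.173 to 0.271 in ABA libraries, a log2 difference of -1.18. The ratio of *RAN2* to *RAN1* was 0.606 to 0.832 in mock libraries and 0.398 to 0.492 in ABA libraries, a log2 difference of -0.68. That of *RAN3* to *RAN2* was 0.608 to 0.730 and 0.408 to 0.618, with overlap and a log2 difference of -0.50. The ratio of *IMPA2* to *IMPA1* was 1.15 to 1.51 in mock libraries and 0.955 to 1.25 in ABA libraries, with overlap and a log2 difference of -0.32. The differences were 0.31 for the NUP50 pair and -0.12 for the Nup93 type pair. Coding sequences are 78.3% identical in the autopeptidase pair, 84% in the exportin 1 pair and 77.6% in the importin alpha pair.

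**Figure D4:**
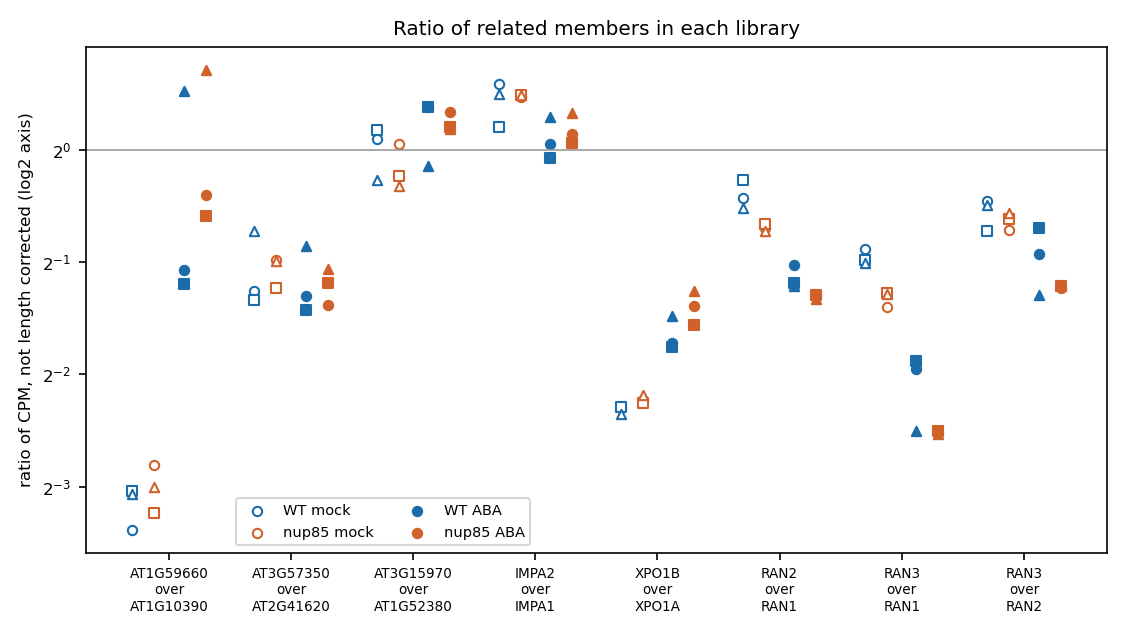
Ratio of CPM between related members in each library. The y axis is the ratio on a log2 axis without correction for length, open points are mock, filled points are ABA, and marker shapes give the replicate as in the plot by library. For *AT1G59660* over *AT1G10390*, *XPO1B* over *XPO1A*, *RAN2* over *RAN1* and *RAN3* over *RAN1* all 6 ABA libraries lie on one side of the 6 mock libraries.

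Between genotypes, none of the 34 members was called under mock conditions, where the background was 0% of 19606 genes. Log2 fold changes of the libraries labelled *nup85* against WT lay between -0.13 (*NUA*) and 0.48 (*RAN1*), with SE from 0.12 to 0.26. *RAN1* alone had an unadjusted p under 0.05 in edgeR (adjusted p = 0.937). DESeq2 called 0 members on all replicates and 0 on replicates 1 and 2 (background 0.174% and 0.985% of genes), and the replicate block gave 0 (0.311%). The 3 *RAN1* levels in *nup85* mock (263 to 289 CPM) were above the 3 in WT mock (159 to 229 CPM). How many of all genes separate in this way between genotypes was not counted, and *RAN1* was singled out by its p-value, so no result is read from it. The next smallest p-values belonged to *AT1G73240* (0.37, SE 0.18, adjusted p = 0.954) and *AT1G59660* (0.38, SE 0.24, adjusted p = 0.955). *NUP85* itself had a log2 fold change of -1.18 (SE 0.90, adjusted p = 0.964) with 3 replicates and -3.46 (adjusted p = 0.0489) with replicates 1 and 2. With replicates 1 and 2, *RAN1* stood at 0.63 (SE 0.17, adjusted p = 0.240) and none of the members was called, where the background was 0.0155% of 19390 genes. The sign of many small differences changed with replicate 3, since 23 members were above 0 with all 3 replicates and 13 with replicates 1 and 2.

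After ABA, again no member was called between genotypes, where the background was 0% of 20270 genes and 1 member had an unadjusted p under 0.05. That member, *EMB3142*, had a log2 fold change of -0.35 (SE 0.13, adjusted p = 0.978 from edgeR). *MOS7* (-0.33, SE 0.14) and *NUP62* (-0.22, SE 0.14) had the next smallest p-values, both with an adjusted p of 1.00, and the highest value was that of *RAN1* (0.36, SE 0.26). DESeq2 on all 3 replicates called 0 members (background 0.415%), and 0 were called with the replicate block (1.38%). With replicates 1 and 2, *RAE1* was called higher in the libraries labelled *nup85* (0.50, SE 0.09, adjusted p = 0.0464 from edgeR), with 96.1 and 94.1 CPM against 67.2 and 67.8 CPM in WT. In replicate 3 both genotypes had nearly the same *RAE1* level, 166 and 167 CPM. The background for that count of 1 was 3.14% of 19869 genes in either direction, with 304 genes called higher. DESeq2 on replicates 1 and 2, which was added once the values were known, called 3 members higher. The background there was 5.32% of 19312 genes in either direction, with 437 genes called higher. The members called by DESeq2 were *RAE1*, *RAN1* (0.52, adjusted p = 0.00273) and *AT1G59660* (0.55, adjusted p = 0.0251). With edgeR on those libraries the adjusted p was 0.0816 for *RAN1* and 0.0516 for *AT1G59660*.

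**Figure D5:**
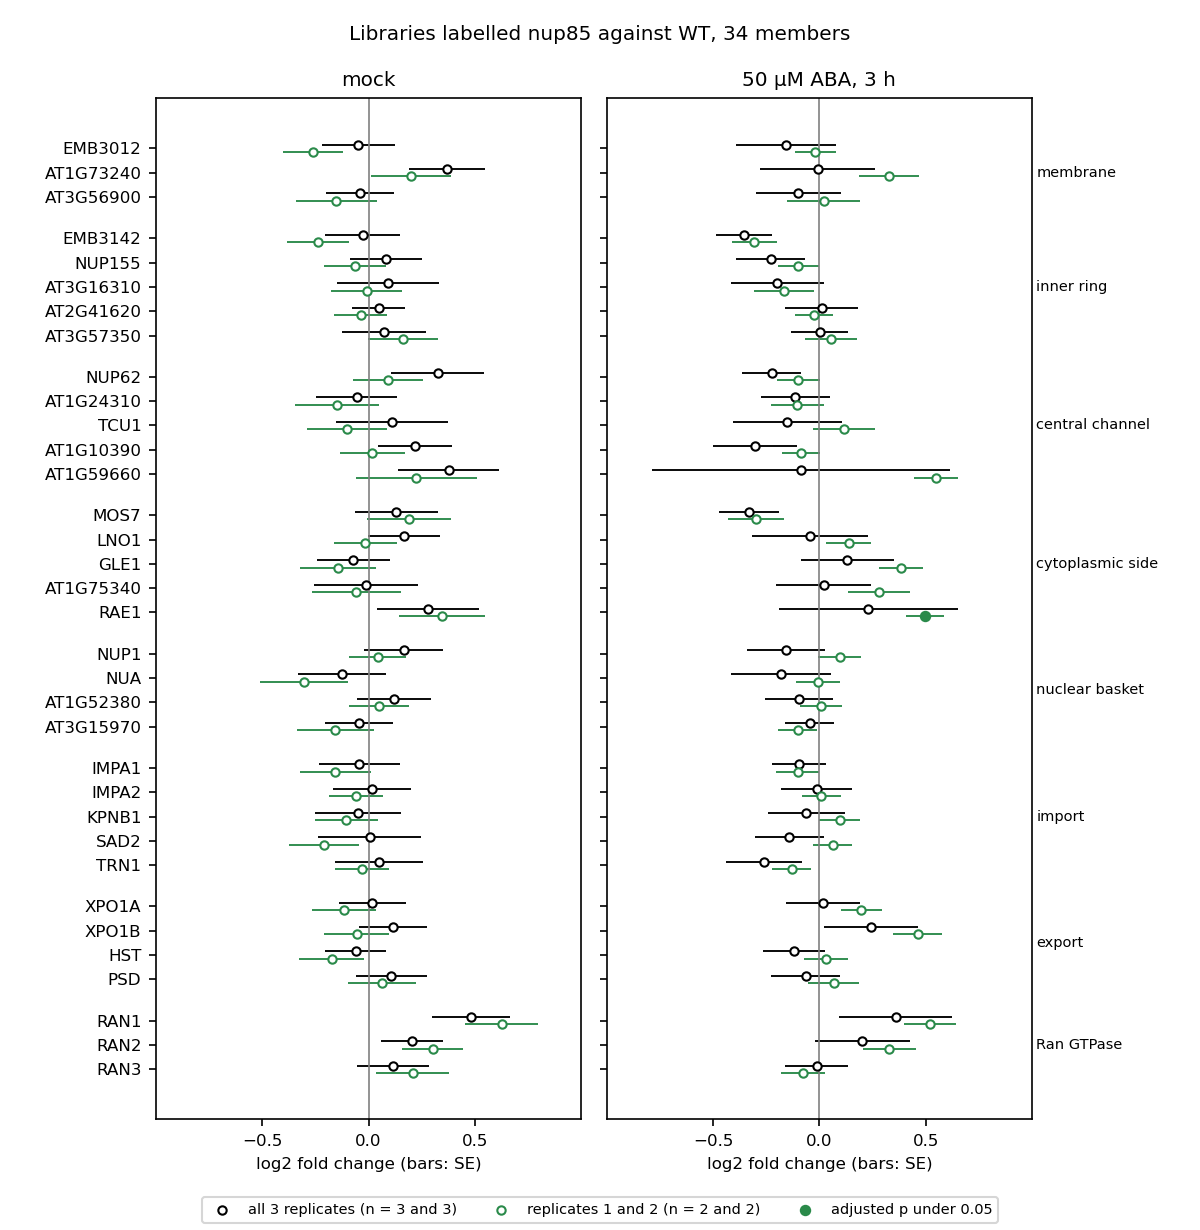
Difference between the libraries labelled *nup85* and WT for the 34 members, under mock conditions and after ABA. The x axes are log2 fold changes, bars are SE, black points use all 3 replicates and green points replicates 1 and 2. The filled point is *RAE1* after ABA (0.50), the one member called there, and the bar of *AT1G59660* after ABA is much longer with all 3 replicates than with replicates 1 and 2.

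The ABA response itself was not called different between genotypes for any member. The interaction, the log2 fold change of ABA in the libraries labelled *nup85* minus that in WT, lay between -0.55 for *NUP62* and 0.20 for *GLE1*, with SE from 0.19 to 0.84. None of the 34 had an unadjusted p under 0.05, DESeq2 called 0, and the background was 0% of 20574 genes. The 3 smallest p-values belonged to *NUP62* (-0.55, SE 0.26), *MOS7* (-0.46, SE 0.23) and *AT1G10390* (-0.52, SE 0.27), each with an adjusted p of 1.00. With replicates 1 and 2 these values were -0.19, -0.49 and -0.11, and 2 members had an unadjusted p under 0.05. Of the 34 interaction values, 30 were below 0 with all 3 replicates and 11 with replicates 1 and 2. In replicate 3 of the libraries labelled *nup85*, the ABA minus mock difference in log2 CPM of *NUP62* was 0.10, against 0.69 and 0.92 in replicates 1 and 2. A p that misses the threshold does not show that the genotypes responded alike.

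Genes of the same pathways outside the 34 were read from lists chosen with earlier results of these data known. The list for the NUP107-160 subcomplex held 9 genes other than *NUP85*, with *HOS1* and both *SEC13* genes among them. Of these, 2 rose (*SEC13A* and *SEC13B*) and 2 fell after ABA over both genotypes, where 26.6% of all genes were called higher and 26.3% lower. The median log2 fold change was -0.06. Upper-quartile scaling gave 0 higher and 4 lower of these 9. Of 15 tested import and export receptors not among the members, 3 rose and 2 fell (33.3% called, against 52.9% of all genes), with 5 and 3 in replicates 1 and 2 (background 63.2%) and 1 and 3 with upper-quartile scaling (53.1%). Of 8 tested genes of the Ran cycle and its import factor, *NTF2B*, which returns Ran to the nucleus, rose with a log2 fold change of 1.08 (SE 0.16, adjusted p = 2.40e-04) and 1 gene fell, *RANGAP2* (-0.37, SE 0.11), which is named here after its value was seen (25% called). *RANGAP1*, likewise named afterwards, stood at -0.44 (SE 0.18, adjusted p = 0.0628 from edgeR) and was not called. In replicates 1 and 2 both were called lower in edgeR, *RANGAP1* at -0.65 (adjusted p = 3.36e-04) and *RANGAP2* at -0.35 (adjusted p = 0.0129). Of 12 mRNA export genes, 4 rose and 2 fell (50% called, near the 52.9% of all genes and 4 and 4 with upper-quartile scaling), with *ALY4*, an adaptor of the export complex, at 1.26 (SE 0.13, adjusted p = 1.69e-05) and the helicase gene *LOS4* at 0.74 (SE 0.10, adjusted p = 1.20e-04). The largest falls were those of the importin family gene *AT3G08947* (-0.76, SE 0.18), *THO1* (-0.54, SE 0.10) and *NUP133* (-0.48, SE 0.11).

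Markers of cell types in a whole seedling were read in the same libraries. The summed level of 3 green shoot genes was 10141 to 17258 CPM in WT mock and 5342 to 13695 CPM in WT ABA, and 11858 to 15605 and 4027 to 12491 CPM in the libraries labelled *nup85*. Of these 3 genes 1 fell, and all 3 with replicates 1 and 2. Of 11 genes of dividing cells 4 fell and none rose (36.4%, against 26.3% of all genes called lower), and 9 fell with replicates 1 and 2 (81.8%, against 32.1%). Their sum was 162 to 262 CPM in WT mock, 160 to 176 CPM in WT ABA, 151 to 206 CPM in *nup85* mock and 131 to 173 CPM in *nup85* ABA. The 2 root hair genes (summed, a median of 9.25 CPM in WT mock and 3.36 CPM in WT ABA) and the endodermis gene *CASP1* (11.3 to 18.0 and 8.98 to 19.6 CPM) were not called with 3 replicates. Their log2 fold changes with replicates 1 and 2 were -1.92, -1.59 and -0.88, all called. The lowest of these sums in any library was 1.53 CPM, for root hair in *nup85* ABA, and the part of such shifts in the changes of the members was not tested.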

How the data were processed

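Total RNA of 12 libraries of whole seedlings was sequenced. The authors trimmed reads with the FASTX toolkit, aligned them to TAIR10 with TopHat2 and counted them per gene with featureCounts, and they deposited raw counts for 33602 genes (versions are not given in the sources used here). The members, gene lists and tests were chosen with earlier results of these data known, and the 8 pairs after values had been seen. Genes passing filterByExpr were tested with edgeR 4.0.16 (quasi-likelihood, TMM factors) in R 4.3.3, each comparison on its own groups and the effect over both genotypes and the interaction on all 12 libraries. Calls needed a Benjamini-Hochberg adjusted p under 0.05 over all genes. The SE of an edgeR log2 fold change was its absolute value divided by the square root of the F statistic of the test. RPKM divided TMM-scaled CPM by the exon length in RefSeq TAIR10.1. Log2 CPM used a prior count of 2 for the correlations between replicates and their deviations. Log2 ratios and log2 differences of CPM used no prior count. Statistics were given for called members, or the 3 smallest p-values where none was called, and also for some members that were not called. The fit was also run on simulated counts that held no replicate effect, so that run does not show how replicate 3 affected the calls. Same-numbered replicates deviated together across genotypes (r = 0.49, 0.48 and 0.73 for mock and 0.64, 0.56 and 0.76 for ABA). Replicate 1 of either genotype and replicate 2 of the other also did, less strongly (0.33 and 0.28 for mock, 0.40 and 0.46 for ABA). Deviations were taken from the group mean, so an outlying replicate 3 by itself puts replicates 1 and 2 on the same side. Whether replicates were matched by number was not tested. Same-numbered replicates deviated together less across treatments, where not every correlation was above 0.1 (0.29, -0.10 and 0.23 in WT, 0.25, 0.04 and 0.24 in *nup85*). Alternatives were replicates 1 and 2 alone, DESeq2 1.42.0, upper-quartile scaling, no filter, a replicate block, fold limits of 4 (ABA) and 1.5 (genotype), and each library left out.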

Additional observations from a re-analysis of the deposited data

How the results depend on the processing

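Of 718 alternative values of the genes named for a comparison (those called, the 3 with the smallest p where none was called, and *NUP85*) 1 changed sign, namely the interaction of *NUP85*, which was -1.12 with all libraries and between -2.66 and 0.94 with 1 library left out, the latter without *nup85* mock replicate 3. Among all 34 members, many small genotype and interaction values changed sign without replicate 3. Apart from the fold limits, calls for ABA over both genotypes held in every alternative for 15 of 18 members, the exceptions being *NUP1*, *HST* and *AT1G52380*. With the fold limits again left aside, calls held for 4 of 11 members in WT and 5 of 8 in the libraries labelled *nup85*. Leaving out 1 library at a time gave 5 to 11 members called in WT, 5 to 10 in *nup85* and 16 to 19 over both. Calls over all genes were then 3484 to 6848 in WT, 3182 to 7718 in *nup85* and 9876 to 10997 over both, of at least 20224 tested. Fold limits left 2 members in each of the 3. Replicates 1 and 2 alone gave 17 members in *nup85* and 1 between genotypes after ABA, and DESeq2 on those libraries, chosen after the data had been seen, gave 13 and 3. DESeq2 on all libraries called 12, 11 and 19 members for ABA in WT, in *nup85* and over both, and no filter gave 10, 6 and 17. Without the filter, 6039 of 25757, 5616 of 25355 and 10802 of 26468 genes were called in these 3 comparisons. The replicate block gave 12, 6 and 21 members for these, and 0 members for both genotype comparisons and the interaction. In *nup85* it lost *RAN3* (adjusted p = 0.0544) and *EMB3012* (adjusted p = 0.0663 from edgeR). In the thinnest case, *AT1G59660* under mock conditions, a library held 59 reads of the gene, which limits the precision of its fold change.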
